A study of Mus musculus with 6 samples.

Results

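This account covers cell division genes of the embryonic mouse brain, a module of 40 listed genes that dividing cells transcribe in S phase, in mitosis or on entry into the cycle. Members were found as probe sets (the array's groups of short probes for a transcript) whose platform annotation names 1 gene only, that gene being on the list. This gave 95 probe sets for 39 of the 40 genes, among 45037 probe sets and 18193 singly named genes on the array. Ccnb1, cyclin B1, had no probe set annotated to it alone, so its transcript was not analysed here, and only its promoter is counted below. Total RNA of whole E18.5 mouse embryo brains was hybridised to Affymetrix arrays, with 1 array per sample. There were 3 Foxf2 mutant brains and 3 wild-type (Wt) brains, all on the C57/bl6 background. The labels do not describe the mutant allele, the number of embryos behind a sample, their litters or their sex. The forkhead factor Foxf2 is best known from pericytes, the mural cells of brain vessels, and the comparison tests for differences in brain transcripts between mutant and wild-type embryos.

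A dividing cell first licenses its DNA for copying, when Cdt1 loads the ring-shaped MCM helicase of subunits Mcm2 to Mcm7, and Gmnn (geminin) then blocks relicensing. In S phase the helicase opens the DNA, primase and polymerase alpha (Prim1, Pola1) start each strand, PCNA clamps the polymerases, and Fen1 and Lig1 trim and seal the lagging-strand fragments. Rrm1, Rrm2 and Tyms supply deoxynucleotides. Mitosis then runs on Cdk1 with cyclins A and B, the Aurora and Polo kinases, centromere proteins and spindle motors, and ends when Cdc20 directs the anaphase-promoting complex to destroy the cyclins. In the late fetal forebrain these genes are active in radial glia and in Eomes-expressing intermediate progenitors, and in the cerebellum in granule cell progenitors. Glial, vascular, microglial and erythroid precursors divide as well, so transcripts of whole-brain RNA cannot be assigned to neural progenitors by these genes alone.

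The list divides into 20 mitotic (G2/M) genes, 16 replication (S phase) genes, 3 cyclins of G1 and the G1/S step, and Eomes. Promoter sequences are shown because the first 2 groups differ in the elements that time their transcription, a feature that the choice of members did not use. Of the 40 genes, 32 had promoters in a RefSeq table of build GRCm38.p6, which gives 250 bases before to 50 after each gene's start. Aurkb, Ccna2, Ccnd1, Ccnd2, Gmnn, Kif20a, Mcm4 and Tpx2 were not matched. The cell cycle homology region (CHR, letters TTTGAA), an element of G2/M promoters, was present on either strand in 11 of 16 mitotic promoters, 2 of 18 replication promoters and 17.9% of all 32851 promoters of the table. The E2F element (TTCCCGC or TTGGCGC), typical of S phase promoters, was present in 3 of 16 mitotic promoters, 10 of 18 replication promoters and 6.81% of all. The CCAAT box (CCAAT), bound by factor NF-Y, was present in 14 of 16 mitotic and 11 of 18 replication promoters, against 37.4% of all. In Prim1 the E2F and CCAAT letters overlap. These matches describe letters in a window and do not show binding. The genes printed below are examples and do not stand for the shares above. Cdk1 also had an E2F element at position -178 from the gene start and a CCAAT box at -208, outside the printed bases. The 120 bases just before the gene start follow, 5′ to 3′ on the gene's strand, with the letters of all 3 elements in capitals, for 3 mitotic genes and then 3 replication genes.
Cdc20, chr4:118437344-118437463, minus strand: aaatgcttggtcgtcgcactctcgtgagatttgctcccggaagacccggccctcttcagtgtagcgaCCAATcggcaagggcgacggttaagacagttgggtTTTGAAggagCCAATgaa
Cdk1, chr10:69352913-69353032, minus strand: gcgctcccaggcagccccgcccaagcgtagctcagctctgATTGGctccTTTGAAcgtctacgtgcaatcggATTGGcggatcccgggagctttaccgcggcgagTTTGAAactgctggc
Kif11, chr19:37376262-37376381, plus strand: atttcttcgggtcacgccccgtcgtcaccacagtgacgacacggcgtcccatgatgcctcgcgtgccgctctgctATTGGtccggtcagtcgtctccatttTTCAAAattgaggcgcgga
Mcm6, chr1:128359706-128359825, minus strand: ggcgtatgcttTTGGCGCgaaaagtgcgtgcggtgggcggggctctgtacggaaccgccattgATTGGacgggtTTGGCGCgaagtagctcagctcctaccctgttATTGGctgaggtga
Rrm1, chr7:102441575-102441694, plus strand: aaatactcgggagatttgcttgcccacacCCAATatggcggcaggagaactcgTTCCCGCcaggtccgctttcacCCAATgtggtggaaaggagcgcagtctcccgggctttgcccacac
Prim1, chr10:128015095-128015214, plus strand: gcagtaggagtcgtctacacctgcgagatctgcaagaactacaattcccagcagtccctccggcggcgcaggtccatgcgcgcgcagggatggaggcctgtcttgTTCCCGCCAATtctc

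Levels are given as linear MAS5 intensities, deposited by the authors with all arrays at a common mean. The median intensity was 24.3 to 25.5 on the mutant arrays and 23.1 to 23.6 on the wild-type arrays. Foxf2 on its brighter probe set read 8.06, 3.31 and 7.57 in mutant brains, against 18.6, 24.4 and 13.8 in wild-type brains. The groups did not overlap, but the probe set lay below the filter on dim signals, and its adjusted p in limma without that filter was 0.173. The labels do not say whether the mutation touches the sequence these probes cover. Only mutant array 2 had Y-linked signal, with Eif2s3y at 260 there and no more than 2.12 elsewhere. The mean of the 18S ribosomal RNA controls was 28.1 to 32.3 on the mutant arrays and 20.3 to 23.4 on the wild-type arrays. The Gapdh 3′ to 5′ ratio was 0.682 to 0.689 on the mutant arrays and 0.702 to 0.741 on the wild-type arrays. For each of these 2 measures p was 0.1 in an exact two-sided permutation test, the smallest that 3 against 3 arrays can give. Their part in the results below was not tested. The labels do not say whether each sample is a separate embryo. The Y-linked signal sets mutant array 2 apart in source from the other mutant arrays, and for the rest the p-values cover only how these 6 samples vary.

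Differences in cell division transcripts between mutant and wild-type brains were mostly small, which does not show that their levels were equal. Of 76 member probe sets bright enough to test, 1 rose in the mutant, a probe set of the flap endonuclease gene Fen1, and 0 fell. The rest did not pass the threshold, an adjusted p of 0.05 in limma's moderated test of log2(intensity + 16), adjusted by Benjamini-Hochberg over 27022 tested probe sets. Over all tested probe sets 0.366% rose and 0.0222% fell. At an unadjusted p under 0.05, 4 member probe sets read higher and 4 lower, where 7.78% and 5.8% of all tested probe sets did so. Every mutant array was higher than every wild-type array for 4 member probe sets and lower for 4, against 10.9% and 9.38% of all tested probe sets. Member shares were 5.26% each way at the unadjusted p and 5.26% each way without overlap, not above the background in any of these 4 counts, and the 1 call is 1.32% of the 76. In bulk RNA, fewer cells of a type and less RNA per cell cannot be told apart.

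Each gene was then represented by its brightest probe set, that of highest mean intensity over all 6 arrays. The choice thus used the compared values, and for Mcm2 and Ccna2 it would differ between the groups. On this basis all 39 genes passed the filter, 9 read higher in the mutant and 30 lower. The median log2 difference (mutant minus wild type on the log2(intensity + 16) scale) was -0.06 over the members, against -0.0076 over 12577 tested genes, of which 51.7% read lower. The remaining 19 of the 95 member probe sets lay below the filter, with no intensity above 18.3 on any array. The median standard error of a member probe set was 0.12 log2 units, and 95% intervals are given below.

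**Figure D1:**
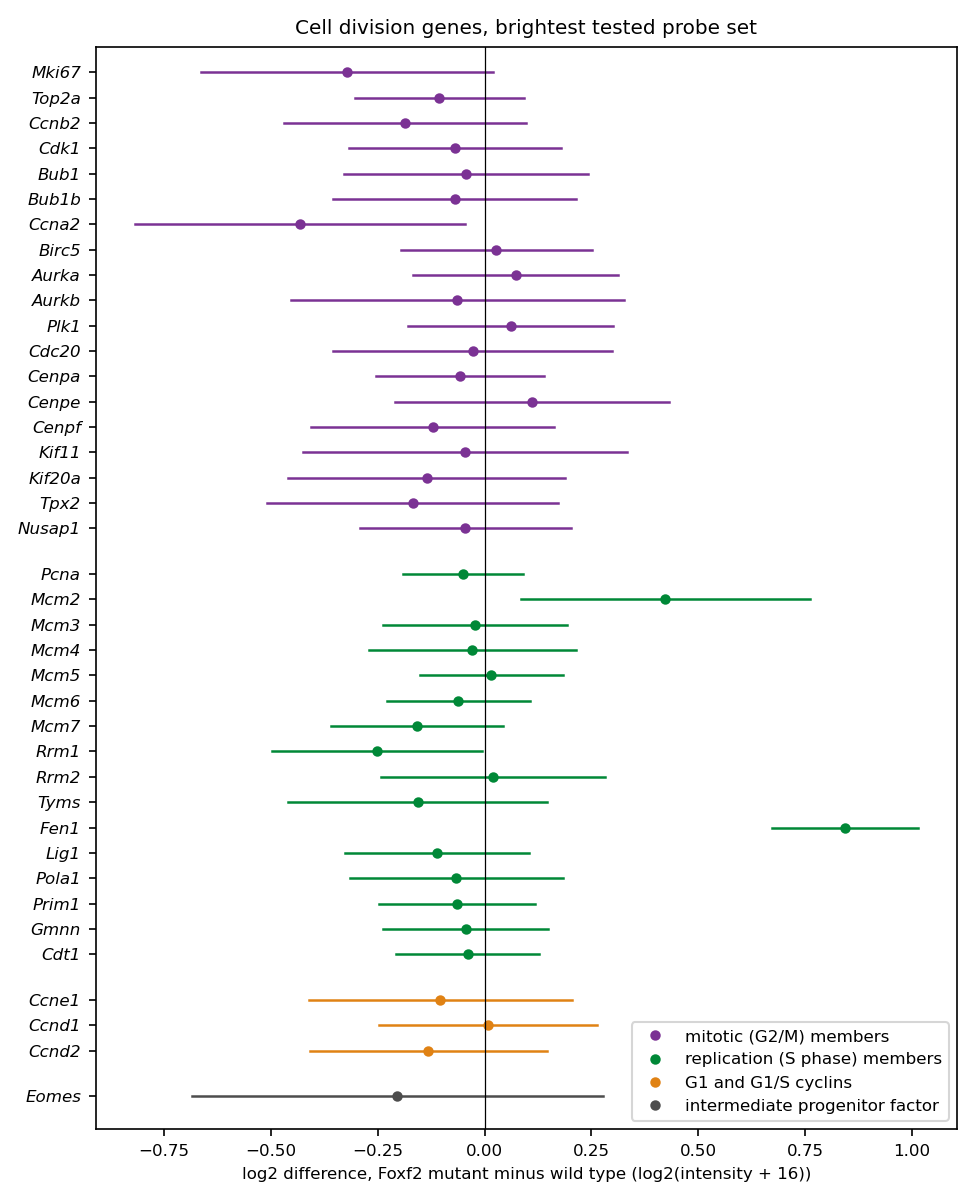
Log2 difference between Foxf2 mutant and wild-type brains (x axis, log2(intensity + 16) units) for the brightest tested probe set of 39 cell division genes (y axis), with 95% confidence intervals from limma, coloured by role. The points lie near 0 apart from Fen1 at 0.84, and Mcm2 at 0.42 and Ccna2 at -0.43 are the next largest. The other probe sets of Mcm2 and Ccna2 had -0.26 and -0.06.

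Among the mitotic genes, 19 were measured, of which 0 passed the threshold in limma, 4 read higher and 15 lower, and at an unadjusted p under 0.05 0 read higher and 1 lower. Mki67 encodes the Ki-67 protein of proliferating cells. Its intensity was 238, 171 and 151 in mutant brains, against 267, 222 and 214 in wild-type brains. Mutant arrays 2 and 3 lay below every wild-type array, and mutant array 1 lay among them. The means were 187 ± 45.2 in mutant and 234 ± 28.9 in wild-type brains (SD, n = 3 each), a log2 difference of -0.32 ± 0.15 (SE; adjusted p = 0.394 in limma).

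Ccna2, the cyclin A2 that acts in S phase and G2, had the largest negative difference of the module, on 1 of its 2 probe sets. Its brighter probe set read 117, 121 and 91.3 in mutant brains, against 121, 143 and 204 in wild-type brains. The groups were separated by a narrow margin, and wild-type array 3 stood above the others. The log2 difference was -0.43 ± 0.17 (SE; adjusted p = 0.314 in limma). The other Ccna2 probe set gave 126 ± 18.7 in mutant and 132 ± 11.2 in wild-type brains (SD, n = 3 each), a log2 difference of -0.06 (adjusted p = 0.854 in limma). In mutant brains this other probe set was the brighter, with a mean of 126 against 110, so the choice of the first rested on the wild-type arrays.

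Ccnb2, a cyclin B that activates Cdk1, read 108, 75.9 and 91.6 in mutant brains, against 103, 98.6 and 117 in wild-type brains. Its log2 difference was -0.19, with a 95% interval of -0.47 to 0.10, and mutant array 1 again sat inside the wild-type range. Cdk1, the kinase that drives entry into mitosis, had a difference of -0.07, with an interval of -0.32 to 0.18. Top2a, the topoisomerase that untangles sister chromatids, had -0.11 on its brightest probe set, with an interval of -0.30 to 0.09.

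The kinases and checkpoint genes lay on both sides of 0. Plk1 (Polo-like kinase), Aurka (the Aurora kinase of spindle poles) and Birc5 (survivin, of the chromosomal passenger complex) had log2 differences of 0.06, 0.07 and 0.03, while Aurkb, the kinase of that complex, had -0.06. Bub1 and Bub1b, kinase and pseudokinase of the spindle checkpoint, had -0.04 and -0.07. A dimmer Bub1b probe set read 40.4, 41.5 and 37.0 in mutant brains, against 43.4, 45.1 and 56.6 in wild-type brains. These values did not overlap, with a difference of -0.21 that did not pass (adjusted p = 0.511 in limma). Cdc20 had -0.03.

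Of the centromere and spindle genes, only Cenpe read higher in the mutant on its brightest probe set. Cenpa, the histone variant of centromeres, had a log2 difference of -0.06 (intensities of 90.8 ± 3.70 in mutant and 95.1 ± 2.69 in wild-type brains, SD, n = 3 each). Cenpe, a kinetochore motor, had 0.11 and Cenpf, a kinetochore protein, -0.12. The spindle motors Kif11 and Kif20a had -0.05 and -0.14. Tpx2, an activator of Aurka, had -0.17 on its brightest probe set, where mutant array 3 read 56.5 and the other 5 arrays 87.8 to 92.4. A dim _x_at probe set of Tpx2 went the other way, at 0.34. Nusap1, which bundles spindle microtubules, had -0.05.

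**Figure D2:**
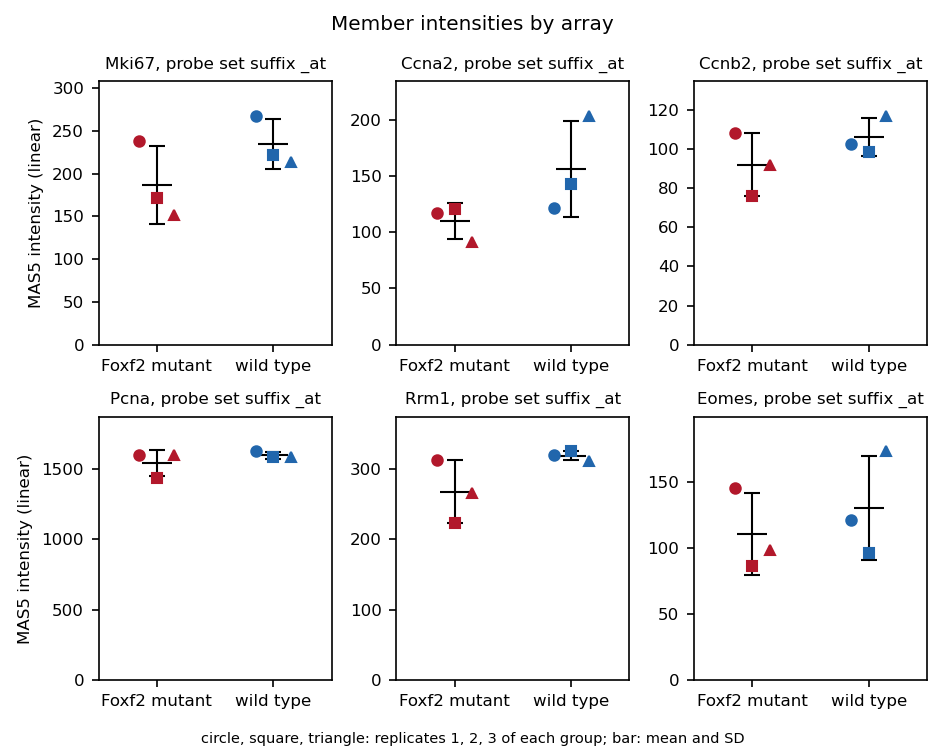
MAS5 intensity (y axis, linear, from 0) of 6 member probe sets in 3 Foxf2 mutant (left) and 3 wild-type (right) brains, with the symbol giving the replicate number and the bar the mean and SD. Groups overlap for Mki67, Ccnb2, Pcna, Rrm1 and Eomes, and Ccna2 is separated by a narrow margin.

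All 16 replication genes were measured. On the brightest probe sets 1 rose (Fen1), 0 fell and 15 did not pass, and 4 read higher and 12 lower. Pcna, the sliding clamp of DNA polymerases and the brightest signal of the group, read 1600, 1437 and 1597 in mutant brains, against 1628, 1583 and 1585 in wild-type brains. The groups overlapped, and the log2 difference was -0.05 ± 0.06 (SE), with a 95% interval of -0.19 to 0.09. Rrm1, the large subunit of ribonucleotide reductase, read 313, 224 and 267 in mutant brains, against 320, 326 and 312 in wild-type brains. Mutant array 1 overlapped the wild-type range and the other mutant arrays lay below it. The difference was -0.25 (adjusted p = 0.355 in limma), and the second Rrm1 probe set had 0.02.

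Rrm2, the small subunit of the same enzyme, had log2 differences of 0.02 on its brightest probe set and of -0.25 and 0.04 on the others. Tyms, thymidylate synthase, was dim, with 17.9 ± 3.66 in mutant and 21.6 ± 1.30 in wild-type brains (SD, n = 3 each) and a difference of -0.16. Lig1, the ligase of lagging-strand fragments, had -0.11, and Pola1, the catalytic subunit of polymerase alpha, -0.07. Prim1, the small primase subunit, had -0.06 and -0.17 on its probe sets. The licensing genes were near 0, with Cdt1 at -0.04 and Gmnn at -0.04. Cdt1 was even between arrays, at 154 ± 5.52 in mutant and 159 ± 0.376 in wild-type brains (SD, n = 3 each).

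Of the MCM helicase subunits, 0 passed the threshold on any probe set. On the brightest probe sets the log2 differences were 0.42 for Mcm2, -0.02 for Mcm3, -0.03 for Mcm4, 0.02 for Mcm5, -0.06 for Mcm6 and -0.16 for Mcm7. The probe sets of a subunit did not read alike. For Mcm5 the brightest was of suffix _x_at, and the _at probe set had -0.15. The brightest Mcm2 probe set, of suffix _s_at, read 104, 125 and 111 in mutant brains, against 67.8, 106 and 70.8 in wild-type brains, and wild-type array 2 overlapped the mutant range. The plain _at probe set of Mcm2 read 75.3, 71.3 and 69.6 in mutant brains, against 98.4, 89.3 and 80.6 in wild-type brains, with every mutant array the lower and a difference of -0.26. In wild-type brains this _at probe set was the brighter, with a mean of 89.4 against 81.6, so the choice of the _s_at probe set rested on the mutant arrays.

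Mcm4 on its _x_at probe set read 166, 132 and 145 in mutant brains, against 86.4, 114 and 122 in wild-type brains. All mutant arrays were higher (log2 difference 0.41, adjusted p = 0.223 in limma), while the brighter _at probe set had -0.03. Mcm6 on its _x_at probe set read 147, 133 and 176 in mutant brains, against 121, 127 and 125 in wild-type brains. Here too the groups did not overlap (difference 0.25, adjusted p = 0.336 in limma), while the brighter probe set had -0.06. Mcm7 on its _a_at probe set read 326, 272 and 321 in mutant brains, against 386, 333 and 353 in wild-type brains, all lower in the mutant with a difference of -0.21 (adjusted p = 0.342 in limma).

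Fen1, which removes the RNA-primed flaps of lagging-strand fragments, was the only member past the threshold. Its brighter probe set, of suffix _x_at, read 205, 216 and 217 in mutant brains, against 109, 111 and 115 in wild-type brains. Both groups were tight, and every mutant array lay far above every wild-type array. The means were 213 ± 6.81 in mutant and 111 ± 3.20 in wild-type brains (SD, n = 3 each). The log2 difference was 0.84 ± 0.08 (SE), with a 95% interval of 0.67 to 1.01 and an adjusted p of 0.0155 in limma, and 3 of 3 mutant arrays were higher. Leaving out single arrays ended the call for wild-type array 1 (adjusted p = 0.0944), wild-type array 2 (0.0934), mutant array 2 (0.0717) or mutant array 3 (0.0731), as did a fit without the variance trend (0.0533). The log2 difference ran from 0.66 to 0.93 over 17 alternatives, with adjusted p from 0.00655 to 0.0944.

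The Fen1 probe sets did not agree. The dimmer one, of suffix _a_at, read 62.8, 57.5 and 65.5 in mutant brains, against 79.6, 59.4 and 83.1 in wild-type brains. Mutant arrays were on average lower, with wild-type array 2 inside their range, and the log2 difference was -0.20 ± 0.13 (SE; adjusted p = 0.535 in limma). Within each array the first probe set exceeded the second by 1.49, 1.66 and 1.52 log2 units in mutant brains, against 0.39, 0.75 and 0.40 in wild-type brains. The gap thus differed by 1.04 log2 units. It was larger in 3 of 3 mutant arrays, with an adjusted p of 0.00476 in limma over 10643 such pairs of probe sets of 1 gene, and an exact two-sided permutation p = 0.1, the smallest possible. The difference between the Fen1 probe sets passed the threshold under each of the 16 alternatives run for pairs, with gaps from 0.79 to 1.17. Hence 1 of the 2 Fen1 probe sets rose, and the data give no rise shared by both.

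**Figure D3:**
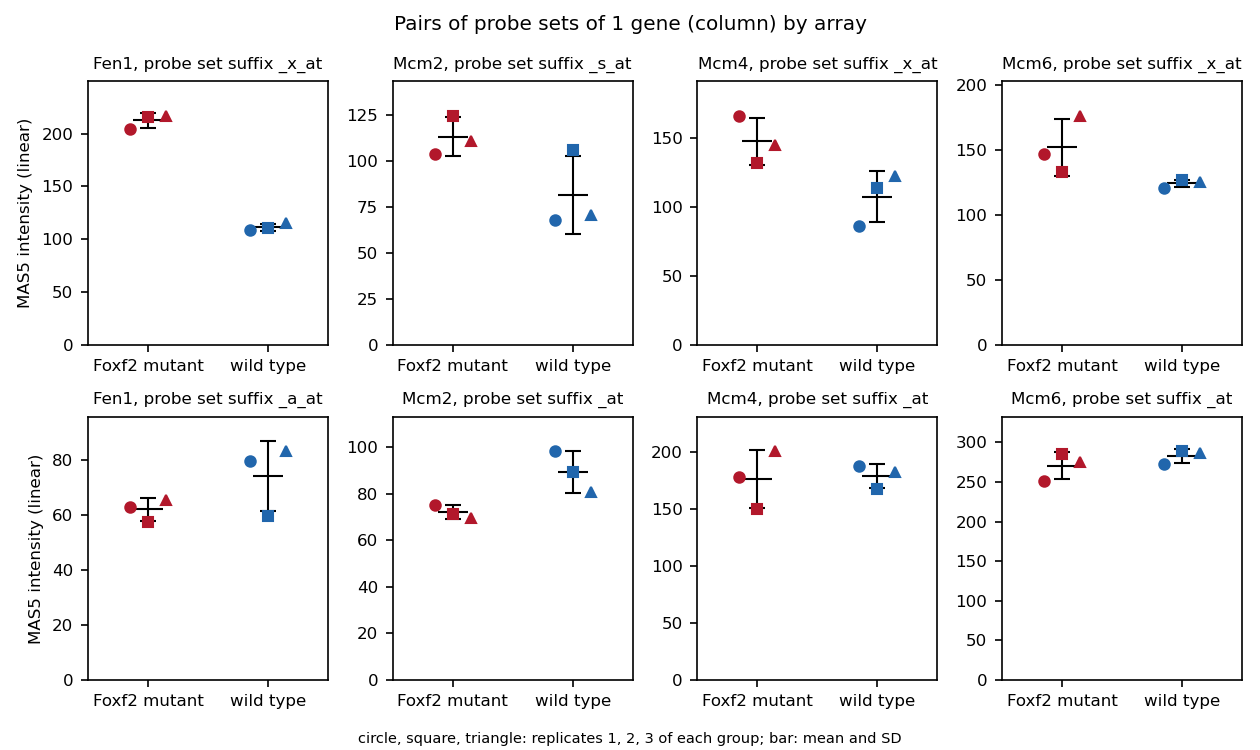
MAS5 intensity (y axis, linear, from 0) of pairs of probe sets of Fen1, Mcm2, Mcm4 and Mcm6 (columns) in 3 Foxf2 mutant (left) and 3 wild-type (right) brains; symbols give replicate numbers and bars the mean and SD. The upper probe sets (_x_at or _s_at) read higher in the mutant, with the mutant arrays at 205 to 217 for Fen1, while the lower ones do not. The genes shown are examples of pairs that differ in this way, and not all pairs do. Aurkb had a log2 difference of -0.06 on its _x_at probe set and 0.05 on its _s_at probe set.

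Such disagreement was tested for all genes with several tested probe sets, as the brightest minus each other one. Of 37 member pairs, 2 passed, those of Fen1 and Mcm2, and over all pairs 3.51% passed. The Mcm2 gap was 0.68 log2 units (adjusted p = 0.0476 in limma), and it fell short of the threshold under 10 of 16 alternatives, with adjusted p up to 0.163. Of the 23 members with several tested probe sets, 7 had all of them on the same side of 0, a share of 30.4%, against 41.2% of 6195 genes on the array. The spread between the probe sets of a member had a median of 0.27 log2 units, against 0.21 over all such genes. Fen1 exceeded 99.4% of those genes in this spread and Mcm2 96.2%.

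Of the member probe sets of suffix _x_at, by which Affymetrix marks sets that hold probes matching other sequences too, 8 of 12 read higher in the mutant, against 14 of 47 of suffix _at. All 7 _x_at probe sets of replication genes read higher in the mutant, with a median log2 difference of 0.16, while 3 of 17 _at and 0 of 4 _a_at probe sets of these genes did, with medians of -0.07 and -0.18. The 4 replication genes that read higher on their brightest probe set did so on suffix _x_at (Fen1, Mcm5 and Rrm2) or _s_at (Mcm2). Mcm3 and Mcm7 had brightest probe sets of suffix _s_at too and read lower. The array as a whole showed a shift of the same sign for suffix _x_at. Of 1631 tested _x_at probe sets 69.5% read higher in the mutant, with a median of 0.10, and 2.45% rose past the threshold. Of 20161 tested _at probe sets 47.2% read higher, with a median of -0.01, and 0.144% rose past it. Mitotic genes had only 3 tested _x_at probe sets, of which 1 read higher. The part of cross-matching probes in these values was not tested, and no probe sequences were used here.

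**Figure D4:**
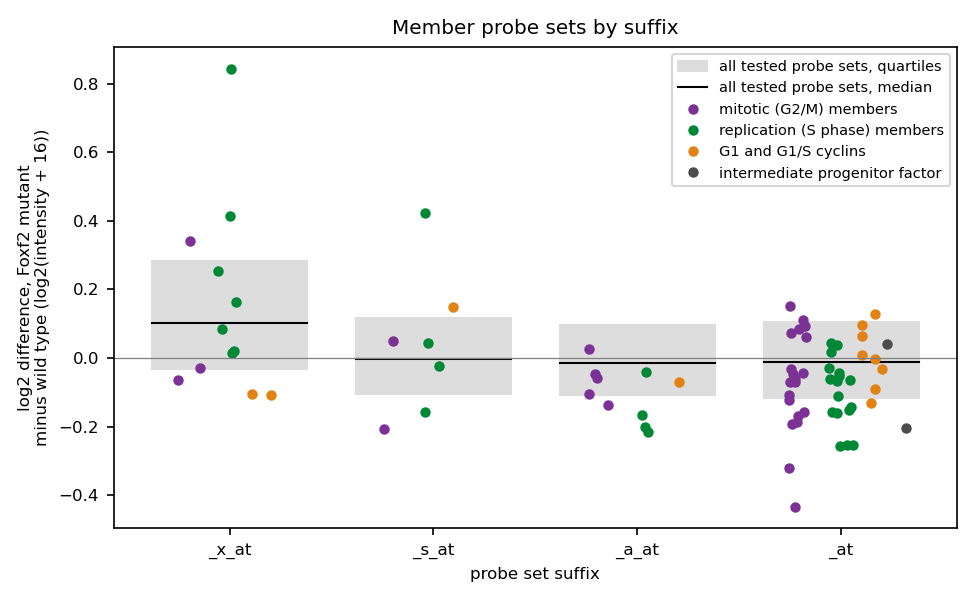
Log2 difference between Foxf2 mutant and wild-type brains (y axis) for 76 tested member probe sets by probe set suffix (x axis), coloured by role; grey boxes and black lines give the quartiles and median of all tested probe sets of that suffix. Replication members of suffix _x_at all lie above 0, and those of suffix _a_at all lie below 0.

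The G1 cyclins did not pass the threshold. Ccnd2, the cyclin D of neural progenitors and one of the brightest members, read 1561, 1191 and 1173 in mutant brains, against 1558, 1236 and 1495 in wild-type brains. Mutant array 1 matched wild-type array 1, and the log2 difference was -0.13 ± 0.12 (SE). Its 7 tested probe sets ran from -0.13 to 0.15, with 2 higher and 5 lower. Ccnd1, cyclin D1, had differences of 0.01 to 0.13 on 3 probe sets. On the probe set at 0.13 it read 95.5, 93.8 and 93.1 in mutant brains, against 84.7, 80.3 and 89.7 in wild-type brains, without overlap but not past the threshold (adjusted p = 0.570 in limma). Ccne1, the cyclin E of the G1/S step, had -0.10 on its brightest probe set.

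Eomes, the T-box factor of cortical intermediate progenitors, varied more between arrays than between groups. It read 145, 86.6 and 98.5 in mutant brains, against 121, 95.8 and 173 in wild-type brains. The log2 difference was -0.20 ± 0.21 (SE), with an interval of -0.69 to 0.28, and the second probe set had 0.04.

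Replication and mitotic members were close to each other. Their median log2 differences were -0.05 over 16 replication genes and -0.06 over 19 mitotic genes, and without Fen1 and Mcm2 the replication median was -0.06. The mitotic genes differed more between single arrays. As the median deviation from each gene's mean over 6 arrays, they stood at 0.14, -0.11 and -0.13 log2 units in mutant arrays 1, 2 and 3, against 0.06, -0.0042 and 0.04 in wild-type arrays 1, 2 and 3. Replication genes stood at 0.07, -0.07 and 0.0090 in the mutant arrays, against 0.0053, 0.02 and 0.05 in the wild-type arrays. Over all tested genes the array medians spanned 0.016.

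Mutant array 1 was thus high for mitotic genes and the other mutant arrays low. It was the highest mutant array for 17 of 19 mitotic genes and for 9 of 16 replication genes, where 32.0% of all tested genes had it highest. Among 38 further mitotic genes not in the module it was highest for 34. The mitotic median depended on it, at -0.18 without mutant array 1, -0.00065 without mutant array 2 and -0.0069 without mutant array 3. The replication median was -0.06 without mutant array 1, -0.02 without mutant array 2 and -0.07 without mutant array 3. Mutant array 2 was also the single array with Y-linked signal. The mitotic medians of the mutant arrays spanned 0.26 log2 units, more than the offset of the mitotic median between the groups.

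The summed erythroid markers, most of which was Alas2, were also highest in mutant array 1. Of 9 listed genes 3 were tested (Alas2, Hbb-y and Slc4a1), and their summed intensity was 323, 79.5 and 100.004 in mutant arrays 1, 2 and 3, against 242, 149 and 171 in wild-type arrays 1, 2 and 3. Alas2, the haem synthesis enzyme of red cells, read 244, 69.6 and 79.0 in mutant brains, against 181, 126 and 146 in wild-type brains. For Alas2, mutant array 1 was highest and the other mutant arrays lowest. The dimmer markers did not both follow this order. Hbb-y read 36.6, 0.571 and 3.86 in mutant brains, against 43.1, 7.04 and 10.7 in wild-type brains, with wild-type array 1 the highest. Slc4a1, the anion exchanger of red cells, read 42.5, 9.33 and 17.2 in mutant brains, against 18.4, 15.5 and 13.99 in wild-type brains, with mutant array 3 above wild-type arrays 2 and 3. Klf1, a red-cell transcription factor, read 3.21 to 14.8 over the 6 arrays, and Epb42 and Hemgn at most 6.02. Intermediate progenitor markers other than Eomes (5 of 6 tested) summed to 685, 535 and 551 in the mutant arrays, against 605, 449 and 599 in the wild-type arrays. The brightest of them was Insm1, at 327, 243 and 278 in mutant brains, against 237, 151 and 221 in wild-type brains. Of the 5 genes 1 read higher and 4 lower, with a median log2 difference of -0.15. Radial glia markers (9 of 9 tested) summed to 8408, 8547 and 8271 in the mutant arrays, against 7641, 7906 and 7356 in the wild-type arrays. The level of this sum rested on a few bright genes, with the fatty acid binding protein gene Fabp7 alone at 4749, 5067 and 5032 in mutant brains, against 4724, 4900 and 4373 in wild-type brains. The groups overlapped for Fabp7, so this gene alone did not separate the sums. Of the 9 genes 4 read higher and 5 lower, and Vim, 1 of the 4, had a log2 difference of 0.45 without overlap. As a median over the 9 genes, the array deviations overlapped, at 0.14, 0.0085 and -0.17 in the mutant arrays, against -0.02, 0.03 and -0.08 in the wild-type arrays. The part of these cell types in the mitotic levels was not tested.

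**Figure D5:**
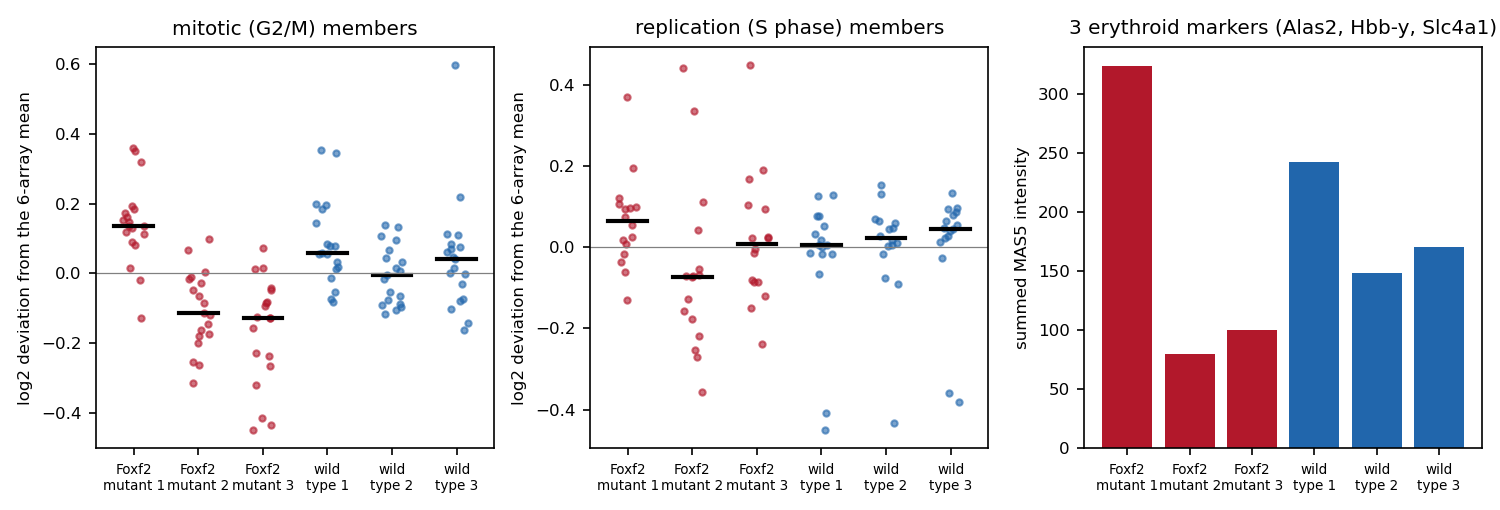
Log2 deviation from each gene's 6-array mean (y axis) for 19 mitotic members (left) and 16 replication members (middle) by array (x axis), with points for genes and bars for medians; the right panel gives the summed MAS5 intensity of 3 erythroid markers (bars from 0). Mitotic medians are 0.14 in mutant array 1 and -0.11 and -0.13 in mutant arrays 2 and 3, and the erythroid sums, mostly Alas2, are highest in mutant array 1 and lowest in mutant arrays 2 and 3.

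Other genes of the cell cycle gave 0 calls in limma over 5 wider lists, where an unadjusted p under 0.05 was reached by 9 of 114 tested genes that read higher (7.89%) and 4 that read lower (3.51%), against 7.59% and 6.01% of all tested genes. Of the 9, 7 were among the 38 further mitotic genes, a larger share than over all tested genes. These 38 genes also held 1 of the 4, a smaller share than over all tested genes. In these 38 genes the groups did not overlap for 8 that read higher and 3 that read lower, against 1375 and 1260 of 12577 tested genes. Of 38 further mitotic genes 24 read higher and 14 lower, with a median log2 difference of 0.05, opposite in sign to that of the mitotic members. This sign turned with median centring (-0.0085) and on leaving out mutant array 1 (-0.06) or wild-type array 2 (-0.0041). Ect2, the exchange factor that starts the cleavage furrow, had 0.54 (adjusted p = 0.0837 in limma), and Kif22, a chromosome arm motor, 0.51 on an _x_at probe set. Of 33 further replication genes 16 read higher and 17 lower, with a median of -0.0016. Mcm10, a helicase activator, had 0.29, and Rfc2, a subunit of the PCNA loader, -0.26. Of 16 E2F, Rb and DREAM regulators E2f5, a repressive E2F, had 0.52 and E2f3, an activating one, -0.23, with a list median of 0.05. Of 13 G1 kinases and inhibitors Ccne2, the second cyclin E, had 0.39 and Fbxw7, which targets cyclin E for destruction, -0.24, with a median of 0.08. Of 14 DNA damage and repair genes Timeless, of the replication fork, had -0.34 and Fanca, of crosslink repair, 0.32, with a median of 0.03.

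Among progenitor markers, 1 rose. Vim, an intermediate filament gene of radial glia, had a log2 difference of 0.45 (adjusted p = 0.0435 in limma) on an _x_at probe set, and this call was lost without the filter (0.0693), with median centring (0.0790), without the variance trend (0.146), with 1 probe set per gene (0.0672) and without any single one of the 6 arrays (0.0571 to 0.176). The log2 difference itself ran from 0.40 to 0.51 over these alternatives. The 9 radial glia markers had a median of -0.10, with 4 higher and 5 lower. Of 5 intermediate progenitor markers 1 read higher and 4 lower, with a median of -0.15. Insm1, a zinc finger factor, had 0.46 on its brightest probe set and -0.205 on the other, and Neurog2, a proneural factor, had -0.20. Of 2 tested ventral progenitor markers, the homeobox genes Dlx2 and Dlx1 had 0.28 and -0.22. Of 5 oligodendrocyte progenitor markers 4 read higher and 1 lower, with a median of 0.09. Sox10, a lineage factor, had 0.35 and Pdgfra, their growth factor receptor, 0.16. Of 5 cerebellar granule progenitor markers 4 read higher and 1 lower, with a median of 0.11, and the zinc finger genes Zic2 and Zic1 had 0.26 and 0.21. None of these passed apart from Vim. Lists for other cells also had 0 calls, while an unadjusted p under 0.05 was reached by 3 of 33 tested genes that read higher and 3 that read lower, 9.09% each way, against 7.59% and 6.01% of all tested genes. The median was 0.04 over 10 neuronal markers, of which 5 read higher and 5 lower. Tbr1 and Neurod6, factors of cortical excitatory neurons, had 0.36 and 0.32, while Neurod2, another such factor, had -0.21. It was 0.12 over 6 microglial markers, with the complement gene C1qb at 0.20 and the chemokine receptor Cx3cr1 at 0.17. Over 6 endothelial markers it was -0.21, with the tight junction gene Cldn5 at -0.43 (adjusted p = 0.0622 in limma) and the VEGF receptor Kdr at -0.41. Endothelial markers summed to 574 to 631 on the mutant arrays and 746 to 783 on the wild-type arrays, without overlap, a sum carried by Cldn5 and Kdr. Of the 6 genes 4 read lower and 2 higher, Cdh5 (VE-cadherin) at 0.29 and the adhesion gene Pecam1 at 0.02, and the part of these cells in the results was not tested. The median was -0.36 over 3 erythroid markers, with Alas2 at -0.37 and the embryonic globin Hbb-y at -0.36. It was 1.07 over 4 skeletal muscle markers, with the creatine kinase Ckm at 1.23 and the actin Acta1 at 1.16, and -0.79 over 4 pituitary markers, with growth hormone (Gh) at -1.21 and the hormone subunit gene Cga at -0.85. Muscle markers summed to 1082 in mutant array 3 and to at most 97.2 in any other array, and pituitary markers to 1985 in wild-type array 3 and to at most 277 in any other. Ckm passed the filter on dim signals only through mutant array 3, at 120 there and at most 13.3 elsewhere. Cga passed it only through wild-type array 3, at 107 there and at most 3.02 elsewhere.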

How the data were processed

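Per the submitters' processing notes, the authors computed MAS5 signals, and the deposited values are intensities on a linear scale; the MAS5 version and the array's genome build are not given in the sources used here. Trimmed of 2% of probe sets at either end, every array averaged 100.0, so no further normalization was applied, and a change in RNA yield per brain would not show. Of 45101 probe sets, 64 controls were left out. Probe sets were named by the platform annotation: 34945 had 1 gene, 932 several and 9160 none listed.

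Values were analysed as log2(intensity + 16), which understates changes of dim genes, in R 4.3.3 with limma 3.58.1 (lmFit on 45037 probe sets, eBayes with a mean-variance trend), two-sided. P-values were adjusted by Benjamini-Hochberg over 27022 probe sets, those not under the 40th percentile of mean level (intensity 13.5). Pairs of probe sets of 1 gene were fitted as within-array differences, with the level of the dimmer one as the trend. The scripts were tested on simulated data. The members and gene lists were chosen with earlier results of these data known. All members could be named; of each wider or marker list, those past the threshold, otherwise the 2 with the largest absolute differences. Eif2s3y, Slc4a1, Klf1, Epb42, Hemgn, Fabp7, Neurod2, Cdh5 and Pecam1 fall outside this rule and were chosen with their values in view. The number of arrays limits the precision. Alternatives covered the offset, filter, normalization, trend, array weights, replicate number, probe sets per gene and each array left out.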

Additional observations from a re-analysis of the deposited data

How the results depend on the processing

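The count of member probe sets called higher, 1, held under each alternative except the fit without the variance trend, which gave 0, and the leave-one-out fits, which gave 0 to 1; 0 were called lower throughout. Over all probe sets the 105 calls became 181 with offset 1, 64 with offset 64, 52 without the filter, 168 with the filter at the 60th percentile, 56 with median centring, 0 without the trend, 12 with 1 probe set per gene, 200 when limma was fitted to tested probe sets only (an alternative chosen after seeing the data) and 0 to 34 with an array left out. The smaller adjustment family or the fewer arrays enter these counts by construction, and other causes were not tested. The median of replication members was -0.10 with median centring, which moved the median of all genes to -0.06, and it ran from -0.07 to -0.02 with an array left out. That of mitotic members ran from -0.18 to -0.00065.

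Median centring turned small differences to -0.027 (Birc5), -0.038 (Mcm5), -0.036 (Rrm1, second probe set), -0.034 (Rrm2), -0.046 (Ccnd1) and -0.012 (Eomes, second probe set). Leaving out an array changed the sign of differences near 0, none past the threshold: Cdk1 ran from -0.15 to 0.013, Bub1 from -0.13 to 0.046, the second Ccna2 probe set from -0.15 to 0.041, Birc5 from -0.024 to 0.073, Aurkb from -0.16 to 0.10, Cdc20 from -0.21 to 0.10, Cenpe from -0.022 to 0.20, Cenpf from -0.22 to 0.0092, Kif11 from -0.24 to 0.076, Tpx2 from -0.28 to 0.015 and Nusap1 from -0.14 to 0.033. Mcm3 ran from -0.085 to 0.015, Mcm4 from -0.12 to 0.074, Mcm5 from -0.013 to 0.053, the second Rrm1 probe set from -0.052 to 0.11, Rrm2 from -0.073 to 0.16, Ccnd1 from -0.079 to 0.11 and the second Eomes probe set from -0.12 to 0.18. Larger differences changed sign too. Hbb-y (-0.36) ran from -0.87 to 0.060, Gh (-1.21) from -2.35 to 0.70 and Cga (-0.85) from -1.33 to 0.11. With the replicate number as a block the calls over all probe sets were 220, and 1 member probe set, that of Fen1, was called. Deviations of same-numbered arrays correlated at 0.18, 0.13 and 0.09, each the best match of its array, but the labels state no pairing and 1 value is below 0.1, so the numbers were not taken as pairs.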
